A study of Mus musculus with 4 samples.

Results

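Potassium channel genes were taken as the rows of a gene count table whose symbol starts with Kcn, which gave 95 of 23240 rows. The table came from RNA sequencing of cells sorted from the mouse cortex at embryonic day 15.5. The neurons were cells sorted for green and red fluorescence together, and the neural progenitor cells (NPCs) were cells sorted for green fluorescence, with 2 libraries in each group. Both groups came from the same kind of embryo, which carried a Nestin-GFP transgene from a heterozygous parent and a DCX-mRFP transgene from a homozygous parent. Nestin-GFP gives green fluorescence in cells that use Nestin regulatory sequence, mainly progenitors, and DCX-mRFP gives red fluorescence in cells that use doublecortin sequence, mainly young neurons. The 2 libraries of a group are described as duplicates, with no statement on litters or on how many embryos were pooled. The p-values therefore reflect library-to-library spread, part of which may be technical.

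Potassium channels let potassium ions leave a cell and so hold the membrane at rest, end the action potential and set how readily a neuron fires. Most Kcn genes encode subunits that form the pore, grouped by what opens them: voltage (Kcna to Kcnd, Kcnh, Kcnq), calcium, sodium or pH (Kcnm, Kcnn, Kcnt, Kcnu), nucleotides or G proteins (Kcnj), or several signals acting on a leak (Kcnk). Others encode subunits that are silent alone and modify a Kv2 pore (Kcnf, Kcng, Kcns, Kcnv), or auxiliary subunits without a pore (Kcnab, Kcne, Kcnip, Kcnmb). In the developing cortex, progenitors rest at a negative potential carried by leak and inward rectifier currents, and voltage-gated currents appear as neurons mature.

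Total counts were 52611828 and 55329294 in neuron libraries and 53533953 and 55615142 in NPC libraries. Levels are given in CPM, the estimated count of a gene scaled to a common library total with TMM factors, per library or as mean ± SD with n = 2 libraries per group. A log2 change is the neuron level over the NPC level, ± its standard error (SE). A gene was called at an adjusted p below 0.05, from the quasi-likelihood test of edgeR with p-values adjusted by Benjamini and Hochberg's method over every gene tested. The reporter genes checked the sort and are no finding: Nes was at 34.7 ± 2.40 CPM in neurons and 100 ± 3.50 CPM in NPCs, and Dcx at 1399.7 ± 58.7 CPM in neurons and 480 ± 17.4 CPM in NPCs. Marker lists showed transcripts of cells other than radial glia in the NPC libraries. Summed levels of 9 pan-neuronal markers were 7204.4 and 7460.1 CPM in neurons and 1756.7 and 1771.5 CPM in NPCs. Those of 8 intermediate progenitor markers were 1113.1 and 1094.3 CPM in neurons and 3488.9 and 3480.5 CPM in NPCs. Radial glia markers (9 genes) summed to 609.8 and 633.1 CPM in neurons and 3056.8 and 3035.1 CPM in NPCs. Summed levels of 10 endothelial markers were 8.74 to 8.78 CPM in neurons and 246 to 252 CPM in NPCs. Those of 10 pericyte and mural markers were 11.3 CPM in each neuron library and 232 to 240 CPM in NPCs. Those of 8 oligodendrocyte precursor markers were 5.84 to 6.08 CPM in neurons and 195 to 199 CPM in NPCs. Microglial markers (10 genes) summed to 19.3 to 19.8 CPM in neurons and 42.9 to 43.1 CPM in NPCs. No endothelial, pericyte and mural, oligodendrocyte precursor or microglial marker was at 0 in either group. All of these that were tested were called higher in NPCs.

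Of the 95 Kcn genes, 76 had enough counts to be tested. In neurons 43 of the 76 were higher (56.6%) and in NPCs 19 were higher (25.0%), and 14 were not called. Over all 15292 genes tested, 35.8% were called higher in neurons and 36.9% higher in NPCs, 72.6% in either direction. At 2-fold or more, 27 members (35.5%) were higher in neurons, where the share of all genes was 11.5%. At 2-fold or more, 14 members (18.4%) were higher in NPCs, close to the 18.5% of all genes. The groups of libraries did not overlap for 71 of the 76 members (93.4%), against 86.0% of all genes tested. The median log2 change was 0.71 for members and -0.02 for all genes. Members passed the filter through their own counts, so these shares describe the genes that were tested, not all 95. Of the 19 not tested, Kcna7, Kcna10, Kcng4, Kcnj1, Kcnk15 and Kcnk16 had 0 counts in every library. The other 13 were Kcnc4, Kcns1, Kcnv2, Kcnj4, Kcnj6, Kcnk4, Kcnk6, Kcnk7, Kcnk9, Kcnk18, Kcne1, Kcne2 and Kcnmb3, and none of them reached more than 19 counts in a library.

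**Figure D1:**
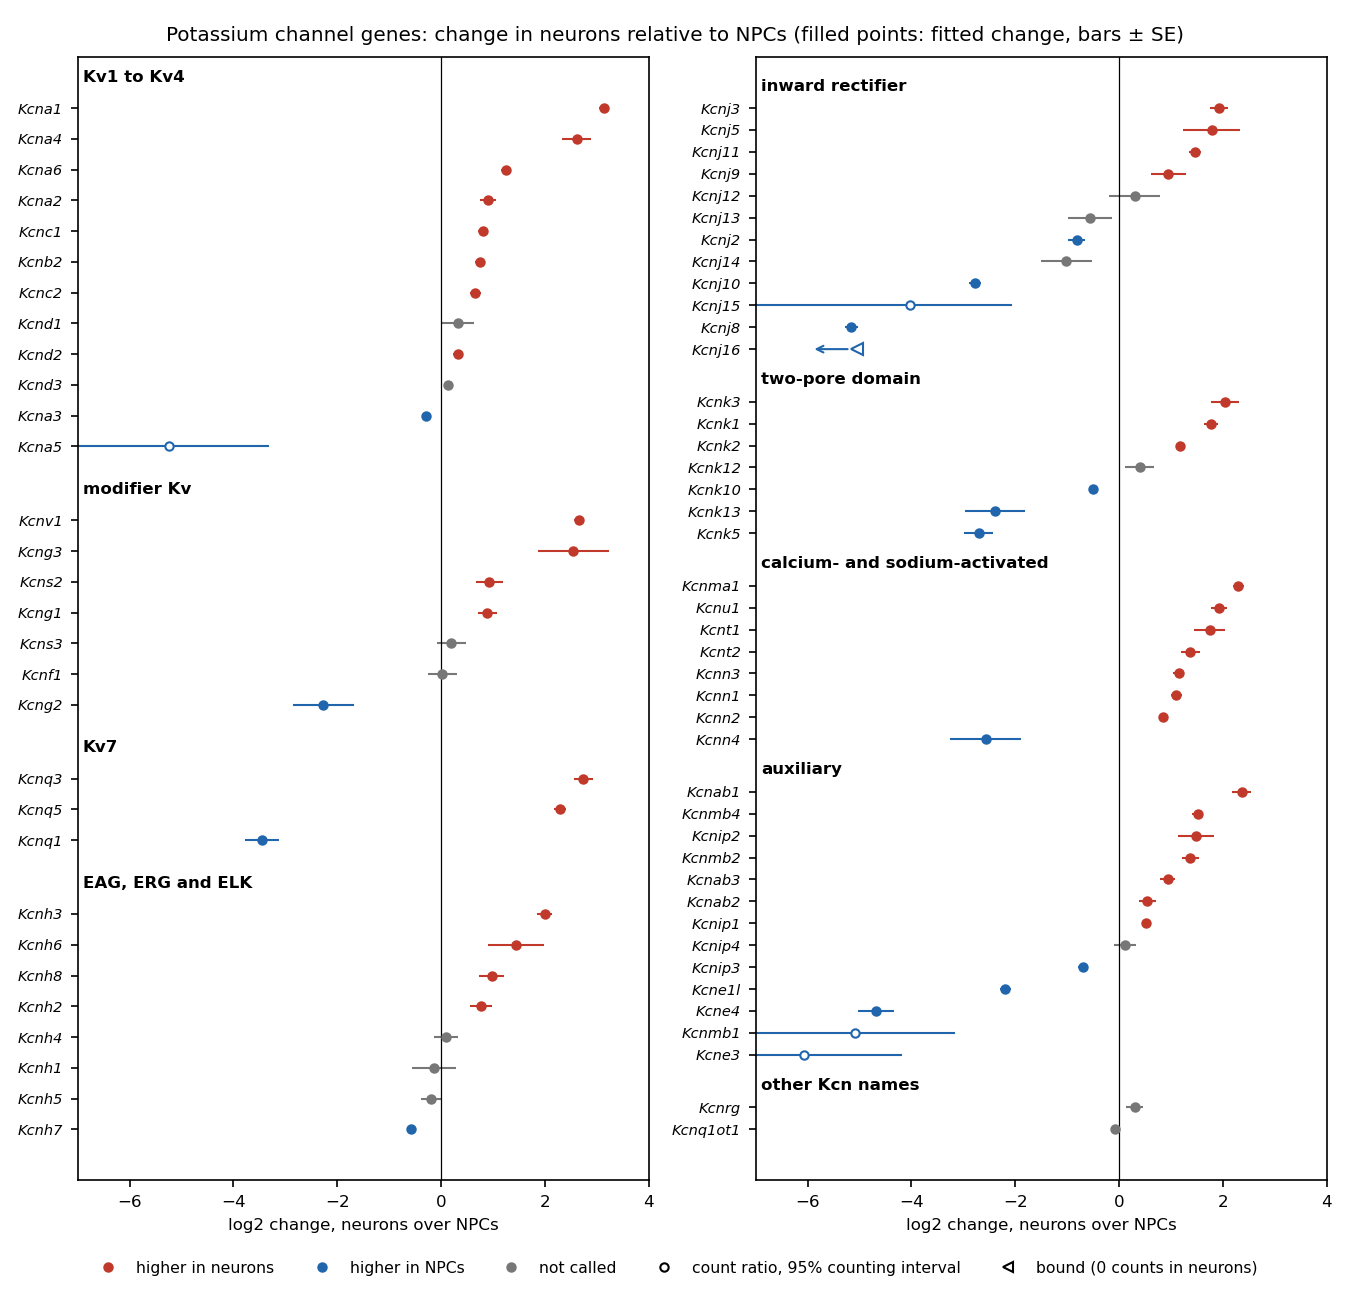
Log2 change in neurons over NPCs for 72 of the 76 tested potassium channel genes by class, with filled points and bars for the fitted change ± SE, open circles for count ratios with 95% counting intervals (cut at the left edge) and a triangle for the bound of Kcnj16. Most voltage-gated and calcium-activated genes lie right of 0, and the inward rectifiers span both sides.

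Summed over the 94 members other than the long noncoding Kcnq1ot1, the level was 715 and 741 CPM in neuron libraries, against 511 and 513 CPM in NPC libraries. To compare genes with each other, CPM was divided by the exon length of each gene in GENCODE vM21, which may differ from the authors' annotation. In neurons the order per kb began with Kcnn2 at 20.3 CPM per kb, Kcnk2 at 14.8, Kcna3 at 13.1, Kcnmb4 at 12.2 and Kcnip1 at 11.3. In NPCs it began with Kcne1l at 24.8 CPM per kb and Kcna3 at 16.1, followed by Kcnj8 at 12.04 and Kcnn2 at 11.2. Kcna1 had rank 6 in neurons at 8.75 CPM per kb and rank 29 in NPCs at 0.996 CPM per kb.

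**Figure D2:**
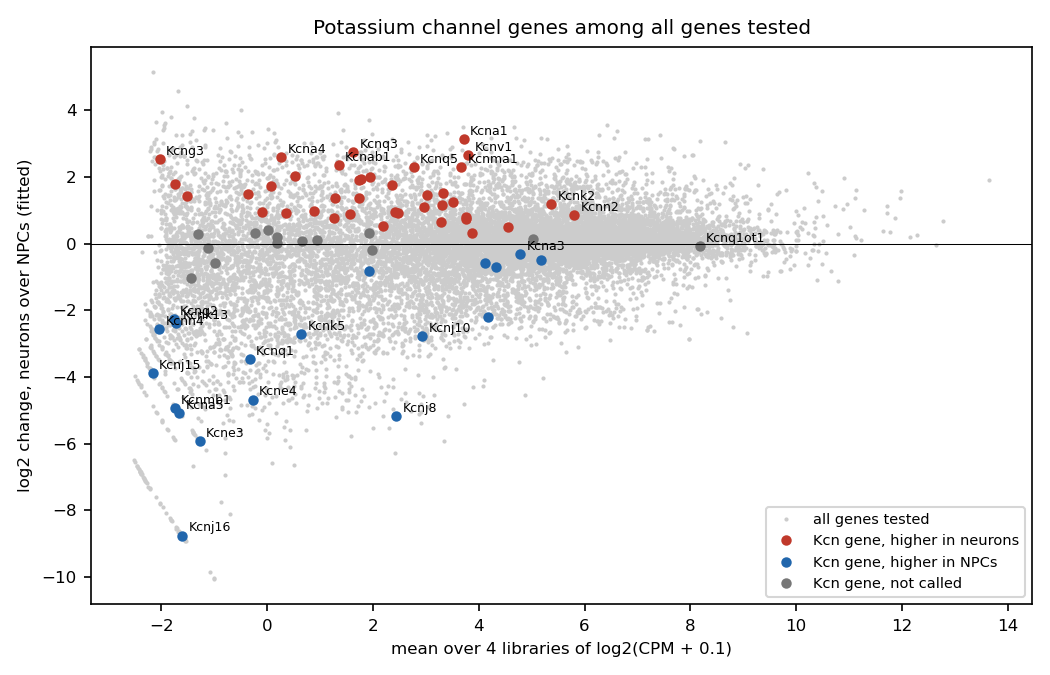
Log2 change in neurons over NPCs against the mean over 4 libraries of log2(CPM + 0.1), for all genes tested (grey) and for 72 Kcn genes coloured by call. Kcna1, Kcnv1 and Kcnma1 lie near the upper edge of all genes at their level and Kcnj8 near the lower edge. Kcnj16, at 0 in both neuron libraries, is drawn at a fitted value that depends on the prior count.

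Several Kcn genes lie side by side in the mouse genome. In 10 cases 2 members had no other protein-coding gene between their starts in the GRCm38.p6 annotation. In 4 of these pairs the neighbours were called in opposite directions: Kcnj9 and Kcnj10 on chromosome 1, Kcna2 and Kcna3 on chromosome 3, Kcna1 and Kcna5 on chromosome 6, and Kcnip1 and Kcnmb1 on chromosome 11. In 2 pairs both were called in the same direction, Kcna1 with Kcna6 (higher in neurons) and Kcnj2 with Kcnj16 (higher in NPCs), and in 4 a member was not tested. Over all genes tested, 35.8% were called higher in neurons and 36.9% higher in NPCs, and pairs of other neighbouring genes were not counted. Kcna5, Kcnmb1 and Kcnj16 passed the count filter through their NPC counts. Sequences are shown for the neighbours Kcnj9 and Kcnj10, for Kcna6 and Kcna5, which lie on either side of Kcna1 and were called in opposite directions, and for Kcnj8, the member with the smallest p. They are the 250 bases before the annotated start, from RefSeq (GRCm38.p6), read on the gene's own strand, with CpG dinucleotides in capitals. From the Kcna cluster on chromosome 6, Kcna6 (minus strand, chr6:126740675-126740924) was higher in neurons and Kcna5 (minus strand, chr6:126535556-126535805) higher in NPCs. On chromosome 1, Kcnj9 (minus strand, chr1:172329323-172329572) was higher in neurons and Kcnj10 (plus strand, chr1:172340960-172341209) higher in NPCs. Kcnj8 (minus strand, chr6:142571615-142571864) was higher in NPCs.
Kcna6: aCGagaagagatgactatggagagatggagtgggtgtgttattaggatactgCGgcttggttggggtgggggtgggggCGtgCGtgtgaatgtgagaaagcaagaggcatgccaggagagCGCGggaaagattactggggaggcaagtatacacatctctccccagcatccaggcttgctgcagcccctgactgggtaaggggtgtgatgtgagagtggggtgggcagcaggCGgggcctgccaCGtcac
Kcna5: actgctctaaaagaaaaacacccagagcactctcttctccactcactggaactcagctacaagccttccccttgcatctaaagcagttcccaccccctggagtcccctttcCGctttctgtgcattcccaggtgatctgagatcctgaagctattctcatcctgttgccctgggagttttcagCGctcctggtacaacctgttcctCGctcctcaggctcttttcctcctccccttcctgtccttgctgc
Kcnj9: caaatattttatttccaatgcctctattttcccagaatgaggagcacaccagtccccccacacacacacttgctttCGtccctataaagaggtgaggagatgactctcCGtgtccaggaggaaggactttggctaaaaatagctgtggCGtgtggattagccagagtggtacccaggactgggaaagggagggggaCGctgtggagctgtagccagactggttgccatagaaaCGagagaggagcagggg
Kcnj10: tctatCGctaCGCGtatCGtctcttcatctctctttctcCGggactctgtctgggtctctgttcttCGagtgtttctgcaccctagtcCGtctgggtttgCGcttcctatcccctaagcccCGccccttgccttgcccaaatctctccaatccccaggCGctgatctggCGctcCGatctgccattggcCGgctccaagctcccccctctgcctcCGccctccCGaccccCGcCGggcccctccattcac
Kcnj8: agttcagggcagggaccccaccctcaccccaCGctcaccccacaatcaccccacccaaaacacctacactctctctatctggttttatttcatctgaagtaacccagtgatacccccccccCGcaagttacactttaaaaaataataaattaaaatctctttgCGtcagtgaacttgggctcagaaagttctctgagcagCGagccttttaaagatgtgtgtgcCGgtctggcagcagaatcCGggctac
The windows held 8 CpGs for Kcna6, 3 for Kcna5, 5 for Kcnj9, 17 for Kcnj10 and 6 for Kcnj8. Entries were found for 70 members, with a median of 9 CpGs, against 6 over 27025 genes. The median was 10 for 26 members higher in neurons and 8 for 17 members higher in NPCs, with ranges of 0 to 43 and 1 to 31 that overlap almost wholly. The letters TATAAA on either strand were found in 3 of 70 members (4.29%) and 14.3% of all genes. CAGATG, letters bound by proneural factors of the bHLH family, was found on either strand in 13 of 70 members (18.6%) and 16.3% of all genes. TTCAGCACC, a part of the site of the neuronal gene repressor REST, was found on either strand in 1 of 70 members (1.43%) and 0.348% of all genes. These motifs do not overlap in their letters, and a match is a description of the window.

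Voltage-gated subunits of the Kv1 to Kv4 families were mostly higher in neurons. Of 17 genes 14 were tested, 10 were higher in neurons and 2 in NPCs. The shares of all genes tested were 35.8% higher in neurons and 36.9% higher in NPCs. Kcna1 encodes Kv1.1, a low-threshold subunit of axons that limits repetitive firing. Its levels were 38.2 and 39.0 CPM in neurons, against 4.74 and 4.05 CPM in NPCs. The log2 change of 3.14 ± 0.09 (edgeR adjusted p = 2.7e-14) was the highest of all tested members. Kcna4, which encodes the inactivating subunit Kv1.4, was at 3.15 and 2.19 CPM in neurons and 0.382 and 0.486 CPM in NPCs (2.61 ± 0.29). Kcna6, which encodes Kv1.6, was at 16.6 and 18.6 CPM in neurons and 7.36 and 7.37 CPM in NPCs (1.25 ± 0.10). For all 3 genes both neuron libraries lay above both NPC libraries, and groups did not overlap for 86.0% of all genes tested. Kcna2, whose product Kv1.2 joins Kv1.1 in axonal channels, rose less, at 0.91 ± 0.16.

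Other Kv1 genes did not follow. Kcna3 encodes Kv1.3, known from T lymphocytes. It was at 24.4 and 25.3 CPM in neurons and 30.9 and 30.3 CPM in NPCs (-0.30 ± 0.07, edgeR adjusted p = 0.0012). Kcna5 encodes Kv1.5, known from heart and smooth muscle. Its counts were 0 and 2 in neurons, against 43 and 45.0 in NPCs. The count ratio was 37.7-fold in favour of NPCs with a 95% counting interval of 10.1 to 316.1. Kcna1 and Kcna5, which lie next to each other, were thus called in opposite directions. Kcna5 passed the count filter through its NPC counts, so its separation of the groups is no further result. Groups did not overlap for 86.0% of all genes tested.

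Kcnc1 and Kcnc2 encode Kv3 subunits, whose channels close fast and permit high firing rates. Their log2 changes were 0.81 ± 0.09 and 0.66 ± 0.11. Kcnb2, which encodes a delayed rectifier of the Kv2 family, was at 19.0 and 16.1 CPM in neurons and 9.88 and 10.9 CPM in NPCs (0.75 ± 0.10). The Kv4 genes, which encode inactivating subunits of dendrites, were close in both groups. Kcnd3 was at 32.1 and 35.4 CPM in neurons and 30.3 and 31.4 CPM in NPCs and was not called (0.13 ± 0.07, edgeR adjusted p = 0.11). It passed without neuron replicate 1 (0.21, edgeR adjusted p = 0.0083), and scaling by library size alone turned its sign (-0.0768). Kcnd2 had a change of 0.32 ± 0.09, with its call lost without NPC replicate 2 (0.27, edgeR adjusted p = 0.071) and with library size only (0.12, edgeR adjusted p = 0.26). Kcnd1 was at 0.33 ± 0.31 and was not called.

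Modifier subunits, which are silent alone, were led by Kcnv1. Of 10 genes 7 were tested, 4 were higher in neurons and 1 in NPCs, against 35.8% and 36.9% of all genes tested. Kcnv1 encodes Kv8.1, which joins Kv2 subunits and shifts their gating. It was at 34.6 CPM in each neuron library, against 5.78 and 5.19 CPM in NPCs. Its change of 2.66 ± 0.09 (edgeR adjusted p = 1.1e-13) stood beside 0.75 for its possible partner Kcnb2. Kcng1 was at 3.40 and 4.38 CPM in neurons and 1.96 and 2.25 CPM in NPCs (0.89 ± 0.18), and Kcns2 had a change of 0.93 ± 0.26. Kcng3 had 19.7 and 11 counts in neurons and 4 and 2 in NPCs, and its call was lost without neuron replicate 1 (edgeR adjusted p = 0.078). Kcng2 was the member higher in NPCs, with 3.24 and 5.40 counts in neurons and 18 and 28 in NPCs (-2.27 ± 0.58). Kcnf1 (0.02 ± 0.28) and Kcns3 (0.20 ± 0.27) were not called.

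Kcnq3 and Kcnq5, of the Kv7 family, encode subunits of the M-current, a slow current that restrains firing and is closed by muscarinic receptors. Kcnq3 was at 7.96 and 7.36 CPM in neurons and 0.955 and 1.32 CPM in NPCs (2.74 ± 0.18, edgeR adjusted p = 3.6e-10). Kcnq5 was at 14.1 and 15.5 CPM in neurons and 3.16 and 2.90 CPM in NPCs (2.29 ± 0.12). Both genes thus rose, each with groups that did not overlap, as for 86.0% of all genes tested. Kcnq1, known from heart and epithelia, went the other way, at 0.184 and 0.194 CPM in neurons and 2.00 and 2.19 CPM in NPCs (-3.46 ± 0.33, edgeR adjusted p = 7.0e-08). Kcne3, whose product joins the Kcnq1 channel of epithelia, had 2 and 0 counts in neurons and 73.4 and 84.1 in NPCs. Exons of Kcnq1 overlap the antisense gene Kcnq1ot1 in GENCODE, and the use of strand in counting is not given in the sources used here.

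Of the 8 genes of the EAG, ERG and ELK family 4 were higher in neurons and 1 in NPCs. Among all genes tested these shares were 35.8% and 36.9%. Kcnh3, an ELK gene of the forebrain, was at 7.88 and 6.95 CPM in neurons and 1.93 and 1.79 CPM in NPCs (1.99 ± 0.15, edgeR adjusted p = 4.0e-09). The change was 0.97 ± 0.23 for Kcnh8, another ELK gene, and 0.77 ± 0.21 for Kcnh2, the ERG gene that repolarises the heart. Kcnh7, also an ERG gene, was higher in NPCs, at 14.1 and 14.4 CPM in neurons and 21.7 and 20.7 CPM in NPCs (-0.58 ± 0.08). Exons of Kcnh3 and Kcnh7 overlap those of Mcrs1 and Gca on the other strand, so reads there are uncertain. The same holds for the others of the 23 members with such overlaps, most of them with noncoding or predicted genes. They include Kcna6, Kcnab1, Kcng2, Kcnj3 and Kcnj15, and also Kcnn2, Kcnk2, Kcnmb4, Kcnma1, Kcnk1 and Kcnq5. Kcnh6 had 28.2 and 14.0 counts in neurons and 6.32 and 11.7 in NPCs, and its call was lost without NPC replicate 1 (edgeR adjusted p = 0.17), without neuron replicate 1 (0.35) and with DESeq2 (0.11). Kcnh1, Kcnh4 and Kcnh5 were not called, with changes of -0.14 ± 0.43, 0.09 ± 0.23 and -0.19 ± 0.19. Kcnh5 had NPC levels of 3.30 and 5.08 CPM on both sides of the neuron levels of 3.50 and 3.84 CPM, and it passed as higher in NPCs without NPC replicate 1 (-0.47, edgeR adjusted p = 0.033).

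**Figure D3:**
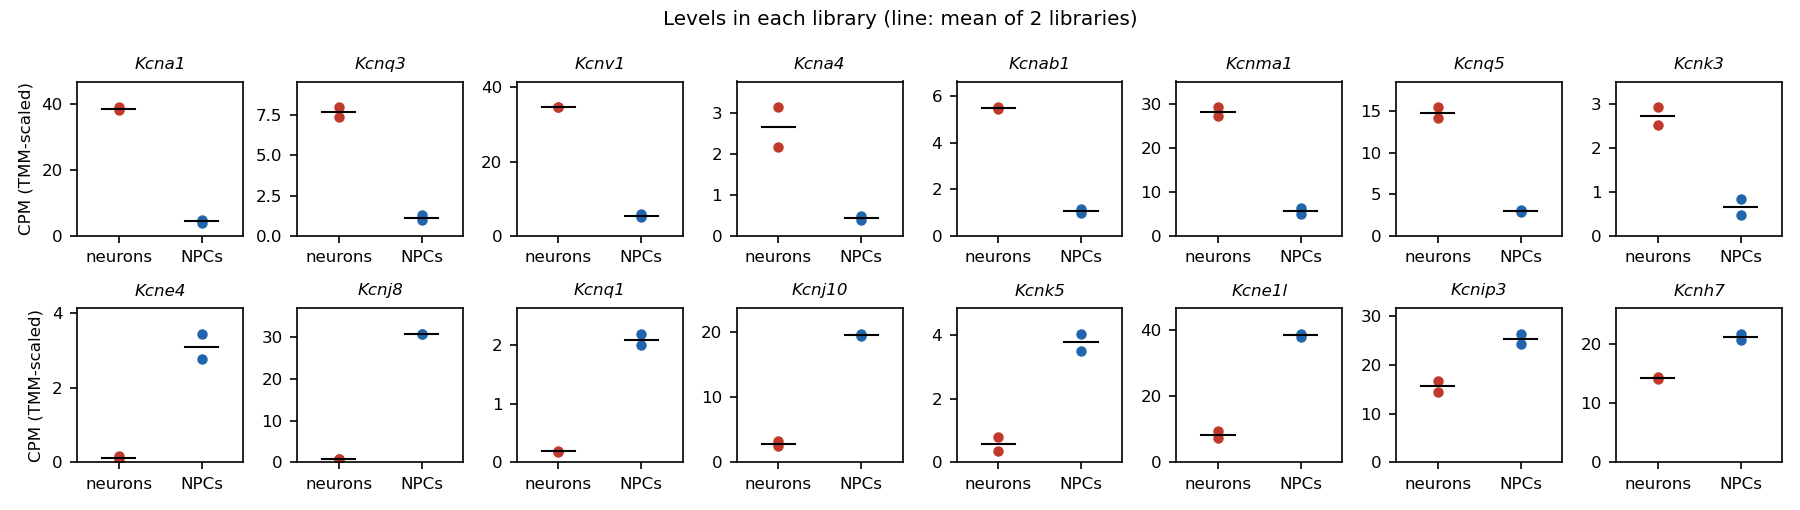
Levels in CPM (vertical axes from 0, scale set per gene) in each of 2 neuron libraries (left in each panel) and 2 NPC libraries (right), with lines at the means, for 8 genes higher in neurons (upper row) and 8 higher in NPCs (lower row). The groups do not overlap in any of the 16 panels, nor for 86.0% of all genes tested. Neurons are at 38.6 CPM for Kcna1 and 0.855 CPM for Kcnj8 against 4.40 and 30.7 CPM in NPCs.

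Inward rectifiers pass potassium more easily into the cell than out of it. This class went both ways, with 4 of 12 tested genes higher in neurons and 5 in NPCs (median -0.69). Of all genes tested, 35.8% were called higher in neurons and 36.9% higher in NPCs. Kcnj8 and Kcnj11 encode the 2 pores of the ATP-sensitive channel, Kir6.1 and Kir6.2, which open when cell energy is low. Kcnj8, known from pericytes and vascular muscle, was at 0.819 and 0.891 CPM in neurons and 30.6 and 30.7 CPM in NPCs. Its change of -5.16 ± 0.12 (edgeR adjusted p = 2.9e-15) had the smallest p of all members. Kcnj11, the pore of neuronal and beta cell channels, was at 12.6 and 13.8 CPM in neurons and 4.83 and 4.79 CPM in NPCs (1.46 ± 0.11). The sulfonylurea receptors that complete these channels differed in the same sense. Abcc9, the usual partner of Kir6.1, was at 1.33 and 1.39 CPM in neurons and 38.5 and 38.7 CPM in NPCs (-4.82 ± 0.11). Abcc8, the usual partner of Kir6.2, was at 47.2 and 44.6 CPM in neurons and 8.65 and 7.54 CPM in NPCs (2.50 ± 0.09). The 9 pericyte and mural markers tested, of which Abcc9 is 1, had changes from -5.83 to -3.06. The change of Kcnj8 also lay within the ranges of the 10 endothelial markers (-5.37 to -4.05) and the 8 oligodendrocyte precursor markers (-6.27 to -2.38). The part of vascular cells in the change of Kcnj8 was not tested. In sorted pools, fewer cells of a type and less RNA per cell cannot be told apart.

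**Figure D4:**
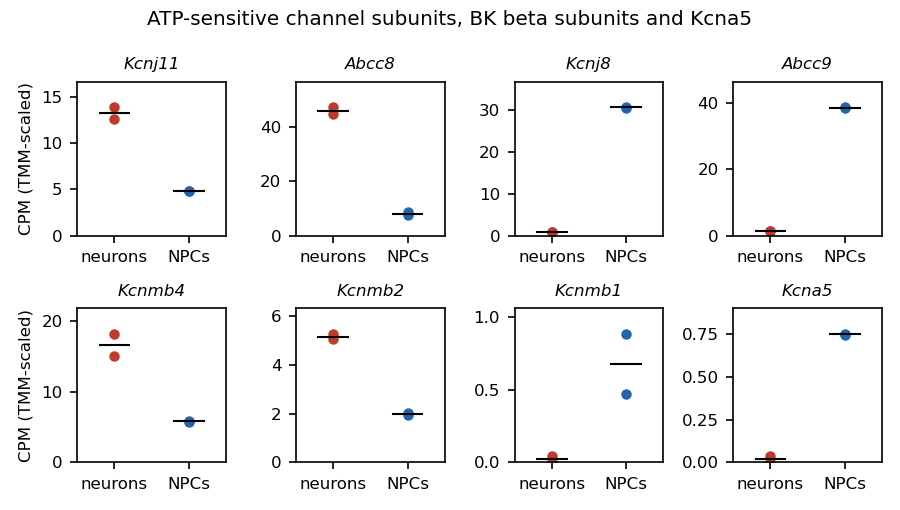
Levels in CPM (vertical axes from 0, scale set per gene) in 2 neuron libraries (left) and 2 NPC libraries (right), with lines at the means, for ATP-sensitive channel subunits, BK beta subunits and Kcna5. Kcnj11, Abcc8, Kcnmb4 and Kcnmb2 are higher in neurons, and Kcnj8, Abcc9, Kcnmb1 and Kcna5 are near 0 in neurons, at means of 0.855, 1.36, 0.0205 and 0.0194 CPM.

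Kcnj10 encodes Kir4.1, the main potassium channel of glia, and Kcnj16 encodes Kir5.1, which joins it. Kcnj10 was at 3.24 and 2.52 CPM in neurons and 19.4 and 19.8 CPM in NPCs (-2.77 ± 0.12, edgeR adjusted p = 2.7e-12). Kcnj16 had 0 counts in both neuron libraries and 68.3 and 48.0 in NPCs. Against a floor of 3 counts over the neuron group it was at least 33.1-fold lower in neurons. Kcnj2, which encodes the strong rectifier Kir2.1, was at 3.11 and 2.50 CPM in neurons and 4.64 and 5.23 CPM in NPCs (-0.82 ± 0.16). Kcnj15 had 0 and 2 counts in neurons and 22 and 16 in NPCs, a ratio of 16.3-fold in favour of NPCs with a 95% counting interval of 4.21 to 139. These 4 genes are described together because each was called higher in NPCs, and Kcnj15 and Kcnj16 passed the count filter through their NPC counts. Their groups did not overlap, as for 86.0% of all genes tested, which is therefore no further result.

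Subunits of channels opened by G proteins moved towards neurons. Kcnj3, which encodes GIRK1, was at 5.61 and 6.91 CPM in neurons and 1.79 and 1.52 CPM in NPCs (1.92 ± 0.17, edgeR adjusted p = 3.0e-08). Kcnj9 (GIRK3) was at 0.819 and 1.55 CPM in neurons and 0.660 and 0.570 CPM in NPCs (0.95 ± 0.34). Its call was lost without neuron replicate 2 (0.42, edgeR adjusted p = 0.39), without NPC replicate 2 (0.074), with DESeq2 (0.070) and with library size only (0.058). Kcnj5 (GIRK4) had 13 and 23.5 counts in neurons and 6.44 and 6 in NPCs, and its call was lost without neuron replicate 2 (edgeR adjusted p = 0.15), without NPC replicate 2 (0.050) and with DESeq2 (0.072). Kcnj6 (GIRK2), the common partner of GIRK1 in the adult brain, had 9.31 and 12.7 counts in neurons and 6.78 and 5 in NPCs and was not tested. Kcnj12, Kcnj13 and Kcnj14 were tested and not called, at 0.30 ± 0.49, -0.56 ± 0.42 and -1.01 ± 0.49. Kcnj14 passed as higher in NPCs with library size only (-1.22, edgeR adjusted p = 0.033).

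K2P genes encode leak channels with a pair of pore domains per subunit, and 7 of 14 were tested. Of these, 3 were higher in neurons and 3 in NPCs, against 35.8% and 36.9% of all genes tested. Kcnk2 and Kcnk10 encode the closely related TREK-1 and TREK-2, opened by stretch, lipids and heat. Kcnk2 was at 63.2 and 60.7 CPM in neurons and 26.7 and 28.1 CPM in NPCs (1.18 ± 0.06, edgeR adjusted p = 5.0e-11). Kcnk10 was at 27.6 and 32.9 CPM in neurons and 42.5 and 43.1 CPM in NPCs (-0.50 ± 0.08, edgeR adjusted p = 2.3e-05). The TREK genes thus moved in opposite directions, without overlap between groups in either, as for 86.0% of all genes tested. The acid-sensitive TASK genes did so too. Kcnk3 (TASK-1) was at 2.93 and 2.52 CPM in neurons and 0.851 and 0.469 CPM in NPCs (2.04 ± 0.27). Kcnk5 (TASK-2) was at 0.348 and 0.794 CPM in neurons and 4.05 and 3.50 CPM in NPCs (-2.71 ± 0.27). Kcnk1 (TWIK-1) was at 9.56 and 8.93 CPM in neurons and 2.83 and 2.58 CPM in NPCs (1.77 ± 0.13). Kcnk13 (THIK-1), known from microglia, had 6 and 2 counts in neurons and 25 and 25 in NPCs (-2.39 ± 0.58), while its relative Kcnk12 was at 0.40 ± 0.28 and was not called. The median log2 change of the microglial markers was -1.28, and their part in the change of Kcnk13 was not tested.

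Genes of channels gated by calcium, sodium or pH were all called, 7 of 8 higher in neurons. Of all genes tested, 72.6% were called in either direction and 35.8% higher in neurons. Kcnma1 encodes the BK channel, opened by voltage and calcium together. It was at 29.2 and 27.1 CPM in neurons and 4.98 and 6.43 CPM in NPCs (2.30 ± 0.11, edgeR adjusted p = 7.4e-12). The SK genes Kcnn1, Kcnn2 and Kcnn3 encode small-conductance channels of the medium afterhyperpolarisation, and all 3 rose. Kcnn2 was at 73.0 and 76.8 CPM in neurons and 42.1 and 40.7 CPM in NPCs (0.85 ± 0.06), and the changes of Kcnn1 and Kcnn3 were 1.10 ± 0.11 and 1.15 ± 0.10. Kcnn4, the intermediate-conductance relative known from red cells, immune cells and endothelium, had 2 and 2.99 counts in neurons and 13 and 22.9 in NPCs (-2.57 ± 0.68). Its call was lost without NPC replicate 2 (edgeR adjusted p = 0.053). Summed levels of 6 erythroid markers were 159 and 156 CPM in neurons and 1154 and 951 CPM in NPCs, and their part in the change of Kcnn4 was not tested. The sodium-activated genes Kcnt1 and Kcnt2 rose by 1.74 ± 0.29 and 1.37 ± 0.19. Kcnu1, known as the pH-gated Slo3 channel of sperm, was at 6.80 and 6.16 CPM in neurons and 1.74 and 1.66 CPM in NPCs (1.93 ± 0.16).

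The beta subunits of BK channels split in the same way as the ATP-sensitive pores. Kcnmb4, the beta subunit typical of brain, was at 15.1 and 18.2 CPM in neurons and 5.77 and 5.91 CPM in NPCs (1.51 ± 0.11). Kcnmb2, which makes the channel inactivate, was at 5.28 and 5.06 CPM in neurons and 1.94 and 2.04 CPM in NPCs (1.37 ± 0.16). Kcnmb1, the beta subunit of smooth muscle, had 2 and 0 counts in neurons and 51.0 and 28 in NPCs. The ratio was 33.8-fold in favour of NPCs with a 95% counting interval of 9.06 to 284. Kcnmb4 and Kcnmb2 thus moved with the pore gene Kcnma1. Kcnmb1 was lower in neurons, and it passed the count filter through its NPC counts. Kcnj8 was lower there too, as were all tested mural, endothelial, oligodendrocyte precursor, radial glia, microglial and erythroid markers. So were 7 of 8 intermediate progenitor markers. The part of any of these cells in the change of Kcnmb1 was not tested. The smooth muscle gene Acta2 of the mural list had 3 and 4 counts in neurons and 6 and 10 in NPCs and was not tested.

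Among other auxiliary subunits, Kcnab1, a cytoplasmic beta subunit that makes Kv1 channels inactivate, was at 5.53 and 5.44 CPM in neurons and 1.15 and 0.989 CPM in NPCs (2.36 ± 0.18, edgeR adjusted p = 3.6e-09). Kcnab3 rose by 0.94 ± 0.14. Kcnab2 was at 5.12 and 5.71 CPM in neurons and 3.07 and 4.34 CPM in NPCs (0.55 ± 0.17), with its call lost without NPC replicate 1 (edgeR adjusted p = 0.14) and with library size only (0.074). The Kcnip genes encode calcium-binding partners of Kv4 channels. Kcnip1 was at 29.5 and 26.4 CPM in neurons and 19.4 and 19.7 CPM in NPCs (0.51 ± 0.08), and Kcnip2 rose by 1.48 ± 0.34. Kcnip3, whose product is also the calcium-regulated transcriptional repressor DREAM, was at 14.5 and 16.8 CPM in neurons and 24.2 and 26.4 CPM in NPCs (-0.69 ± 0.09, edgeR adjusted p = 2.6e-06). Kcnip4 was at 0.12 ± 0.21 and was not called.

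All 3 Kcne genes that were tested were higher in NPCs, as were 36.9% of all genes tested. However, Kcne3 and Kcne4 passed the count filter through their NPC counts. Kcne1 had 2 and 4 counts in neurons and 3 and 3 in NPCs, and Kcne2 had 7 and 6 in neurons and 6 and 7 in NPCs. Neither was tested. Kcne1l, an X-linked member of this family of single-span subunits, was at 7.37 and 9.37 CPM in neurons and 38.7 and 37.7 CPM in NPCs (-2.19 ± 0.10, edgeR adjusted p = 3.1e-12). Kcne4 was at 0.164 and 0.0775 CPM in neurons and 2.76 and 3.45 CPM in NPCs (-4.67 ± 0.35). Kcne3, given above beside Kcnq1, had a count ratio of 67.3-fold in favour of NPCs with a 95% counting interval of 18.3 to 560. The groups did not overlap for any of the 3, as for 86.0% of all genes tested, which is therefore no further result.

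The 2 remaining rows encode no channel subunit and were not called. Kcnq1ot1, the long noncoding RNA that silences genes of its imprinted cluster, was at 280 and 284 CPM in neurons and 302 and 295 CPM in NPCs (-0.08 ± 0.05, edgeR adjusted p = 0.17). It passed as higher in NPCs with upper-quartile factors (-0.18, edgeR adjusted p = 0.0045) and with library size only (-0.29, edgeR adjusted p = 8.9e-05). Kcnrg was at 3.69 and 4.61 CPM in neurons and 3.14 and 3.57 CPM in NPCs (0.31 ± 0.16), and it passed as higher in neurons without neuron replicate 1 (0.47, edgeR adjusted p = 0.015).

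The members higher in NPCs differed among themselves in how low they were in neurons. The 9 radial glia markers of the list had changes from -2.98 to -1.53. Of the 19 members higher in NPCs, 8 fell below that range: Kcna5, Kcnq1, Kcnj8, Kcnj15, Kcnj16, Kcne3, Kcne4 and Kcnmb1, picked out after their values were seen. The highest of these 8 was -3.46. The counting interval of Kcnj15, 4.21 to 139-fold lower in neurons, reached into the range of radial glia markers. That range ran from 2.88-fold for Nes to 7.90-fold for Hes5. The 10 endothelial markers had changes from -5.37 to -4.05, the 9 pericyte and mural markers tested from -5.83 to -3.06, and the 8 oligodendrocyte precursor markers from -6.27 to -2.38. The 10 microglial markers had changes from -2.64 to -0.80 and the 5 erythroid markers tested from -3.19 to -1.75. These 2 ranges, and that of oligodendrocyte precursor markers, overlapped the radial glia range. The other 11 members, which included Kcnj10, Kcne1l, Kcnk5, Kcnk10, Kcnip3 and Kcnh7, lay within or above the radial glia range. For the 5 of the 8 with at most 2 counts in the neuron group (Kcna5, Kcnj15, Kcnj16, Kcne3 and Kcnmb1) the fitted change depends on the prior count. These 5 and Kcne4 passed the count filter through their NPC counts, so that they were low in neurons is no further result. Which cells carried these transcripts was not tested.

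Genes that assemble, anchor or modify potassium channels were read from a list of 23 without Kcn names. The list was chosen with earlier results of these data known. Of 19 tested, 14 were higher in neurons, 2 (with Abcc9 the one of smaller p) in NPCs and 3 (Akap5, Dlg1 and Vapb) were not called. Shares of all genes tested were 35.8% higher in neurons and 36.9% higher in NPCs. The median log2 change was 1.02 for the list and -0.02 for all genes. The status of Akap5, Dlg1 and Vapb changed under other settings. With library size only, Akap5 (-0.35), Dlg1 (-0.35) and Vapb (-0.17) passed as higher in NPCs, with edgeR adjusted p = 0.0050, 0.00015 and 0.040. With upper-quartile factors, Akap5 (-0.24) and Dlg1 (-0.24) passed, with edgeR adjusted p = 0.039 and 0.0034. Dlg1 also passed at a mean of at least 1 CPM (-0.16, edgeR adjusted p = 0.038) and without neuron replicate 2 (-0.20, edgeR adjusted p = 0.0063). Cntn2, an adhesion protein that gathers Kv1 channels beside nodes of Ranvier, was at 627 and 685 CPM in neurons and 106 and 103 CPM in NPCs (2.65 ± 0.06). The Kv4 partners Dpp6 and Dpp10 rose by 1.37 ± 0.09 and 1.02 ± 0.10, although the Kv4 pore genes were close in both groups. Ank3, the ankyrin that holds Kv7 channels at the axon initial segment, was at 295 and 291 CPM in neurons and 82.1 and 80.8 CPM in NPCs (1.85 ± 0.05). Of the BK gamma subunits, Lrrc55 rose by 2.43 ± 0.16, Lrrc52 had 0 counts in every library, and Lrrc26 and Lrrc38 were too low to be tested. Hcn3 (0.67 ± 0.10) and Hcn4 (1.91 ± 0.31), which encode related cation channels opened by hyperpolarisation, were higher in neurons. Hcn2 was at 0.64 ± 0.36 and was not called, though it passed without NPC replicate 1 (1.16, edgeR adjusted p = 0.036).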

How the data were processed

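The authors deposited 1 table of estimated counts per gene and library, not scaled between libraries. All 65205 values above 0 and below 10000 were multiples of 1 base of a 101-base read within 0.01 base. The submitters' processing notes name TopHat 1.2.0, CASAVA 1.9, SAMtools 0.1.18 and build mm9, with no role for each. Not given in the sources used here: the counting tool, its annotation and its use of strand. Overlapping and antisense genes are therefore uncertain, and exons of 23 members overlap another gene in GENCODE vM21.

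Estimated counts were rounded. filterByExpr kept 15292 of 23240 rows, TMM factors were 0.928 and 0.933 in neurons and 1.08 and 1.07 in NPCs, and groups were compared with edgeR 4.0.16 (R 4.3.3), glmQLFTest, two-sided, unpaired. SE was the log2 change over the root of the F statistic. The biological coefficient of variation was 4.89%. Mean chi-square per gene between duplicates was 14.1 in neurons and 4.56 in NPCs, above sampling noise, so all 4 libraries were kept. Count intervals are exact binomial at 95% and cover counting error only. Members and lists were chosen with earlier results of these data known. Genes described were, in each class, the 2 with the smallest p, the 1 with the highest level and the most extreme opposite call, with the 8 highest and 8 lowest changes at 1 CPM or more. Other members were added after their values were seen. Some genes are counted but not reported here by name. Of the genes without Kcn names, Abcc9 and Cntn2 had the smallest p of the partner list, and the others were chosen after their values were seen, besides Nes and Dcx. The fit was tested on simulated data with known changes. Alternatives used limma 3.58.1 and DESeq2 1.42.0.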

Additional observations from a re-analysis of the deposited data

How the results depend on the processing

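The counts of members called were 43 higher in neurons and 19 higher in NPCs, 27 and 14 at 2-fold or more, and 12 alternatives were run. Members higher in NPCs became 11, and 6 at 2-fold or more, when a mean of at least 1 CPM was required, because this left 57 members to test. Under the other alternatives the members higher in neurons numbered 39 to 43 and those higher in NPCs 18 to 21. Leaving out 1 library in turn gave 39 to 43 members higher in neurons and 18 to 20 higher in NPCs, 26 to 32 and 13 to 14 at 2-fold or more, and 9773 to 11252 genes in all. Library size as the only scaling moved the median log2 change of all genes to -0.23 and that of members to 0.50, with 39 members higher in neurons and 21 in NPCs (24 and 16 at 2-fold or more). It changed the share of all called genes that were higher in neurons to 33.5%, from 49.2% with TMM. The duplicate numbers are not known to pair the libraries, and deviations of same-numbered libraries had a correlation of 0.0302 across genes. With the replicate block the counts were 43, 19, 27 and 14, with 11206 genes called in all, and no call of a member changed, while Dlg1 of the partner list passed as higher in NPCs (-0.14, edgeR adjusted p = 0.042).

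Of 893 values of single members under alternatives, 854 kept their direction and side of the threshold, 21 were no longer called, 6 became called and 12 changed sign. No member that was called changed sign. The sign changes were of uncalled genes. With library size only, Kcnd3 was at -0.0768, Kcnf1 at -0.18, Kcns3 at -0.0084, Kcnh4 at -0.12, Kcnip4 at -0.0851 and the partner Vapb at -0.17 (edgeR adjusted p = 0.040). With upper-quartile factors, Kcnf1 was at -0.0781, Kcnh4 at -0.0131 and Vapb at -0.0626. Leaving out 1 library in turn gave -0.19 to 0.28 for Kcnf1, -0.43 to 0.24 for Kcnh1, -0.47 to 0.15 for Kcnh5, -0.19 to 1.05 for Kcnj12 and -0.0325 to 0.12 for Vapb. The cause was not tested. The 19 members not tested had at most 19 counts in a library, and 6 of them had 0 counts in every library. Values of members with counts below 30 per library rest on few reads. The part of sequencing depth was not tested.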
